A study of Mus musculus with 8 samples.

Results

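The genes described here encode integrins of stromal and epithelial cells, and were measured in lung cells sorted by the signal of a protease-activated probe. They are 10 of the 27179 genes of the deposited count table, chosen by name: Itga1, Itga5, Itga7, Itga8, Itga9 and Itgb3, grouped here as mesenchymal, and Itga3, Itga6, Itgb4 and Itgb6, grouped as epithelial. All 10 were counted and passed the filter on low counts. Female C57BL/6J mice, whose strain the labels give as C57BL/6, carried the Eml4-Alk rearrangement. This inversion, called a translocation in the labels, drives lung adenocarcinoma and had been induced by an adenovirus. The mice were 18 to 22 weeks old and 11 to 12 weeks past tumor induction. Every mouse received 4.5 nmol of QZ1-(PEG2K) by vein 2 h before the lungs were taken; QZ1 is a quenched peptide probe that carries the dye Cy5 and becomes fluorescent when proteases cut it. Cells that were alive and without CD45 or CD11b were sorted by Cy5 signal, gated against EpCAM, into a QZ1-hi and a QZ1-lo population, and 4 libraries of each were sequenced from total RNA of at least 100000 cells. The lungs held tumors together with the tissue around them, and the purity of the sorted populations was not assessed. No healthy lung and no lung without probe is part of these libraries, so the comparison is between populations of tumor-bearing lungs only.

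An integrin is a receptor of an alpha and a beta subunit that spans the cell membrane, binds matrix proteins or other cells outside, and links them to actin or to keratin filaments inside. The alpha subunit largely sets the ligand: alpha1 with beta1 binds collagens, alpha3, alpha6 and alpha7 with beta1 and alpha6 with beta4 bind laminins, alpha5 and alpha8 with beta1 and alphaV with beta3 or beta6 bind ligands that carry the tripeptide RGD, such as fibronectin, and alpha9 with beta1 binds tenascin-C and other ligands. In the lung, alpha3, beta4 and beta6 are known from the epithelium, where alphaV with beta6 activates latent TGF-beta, while alpha1, alpha5 and alpha8 are known from endothelial cells, smooth muscle or fibroblasts. RNA levels of a subunit do not give the amount of receptor at the surface, since a subunit needs its partner to get there.

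Values per library are CPM, counts per 1000000 counts of the library, scaled by TMM, a method that corrects for a few abundant genes taking up reads. Library totals were 18380918 to 26847938 counts, of which mitochondrial ribosomal RNA took 39.5% to 58.4% in QZ1-hi and 30.2% to 47.3% in QZ1-lo. A gene was called when its adjusted p in edgeR's quasi-likelihood test was under 0.05, and the log2 fold change is that of QZ1-hi over QZ1-lo. Over the 15583 genes tested, 18.1% were called, 9.88% higher and 8.21% lower in QZ1-hi, and the median log2 fold change was 0.02. With libraries scaled by their totals alone that median was -0.44, and 882 genes were called higher and 2509 lower in place of 1540 and 1280. For 22.6% of genes, the libraries of the populations did not overlap.

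Of the 10 integrin genes, 4 were called higher in QZ1-hi and 3 lower, beside 9.88% and 8.21% of all genes. The genes were chosen with earlier results of these data known, so these shares cannot test an excess. The higher calls numbered 2 without QZ1-hi replicate 3 or without QZ1-lo replicate 2. The 4 higher ones, Itga1, Itga5, Itga8 and Itgb3, were in the mesenchymal group of 6, whose median log2 fold change was 1.20. The 3 lower ones, Itga3, Itgb4 and Itgb6, were in the epithelial group of 4, whose median was -1.13. Itga7 and Itga9 of the first group and Itga6 of the second did not pass the test. For 6 of the 10 the libraries of the populations did not overlap, beside 22.6% of all genes. In bulk libraries, fewer cells of a type and less RNA per cell cannot be told apart.

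**Figure D1:**
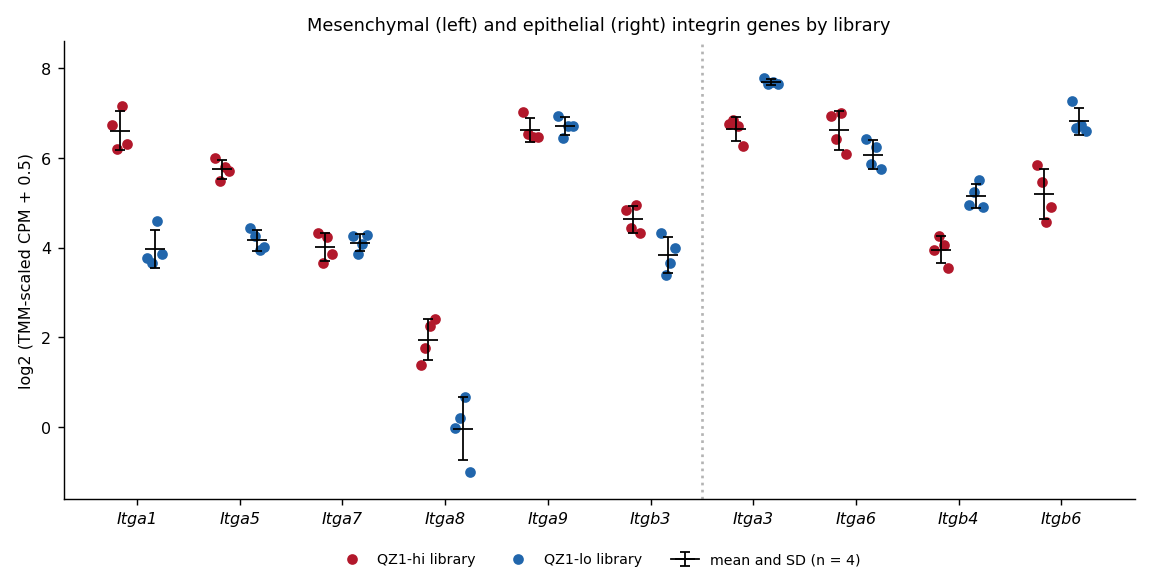
Level of each integrin gene in each library, as log2 of TMM-scaled CPM with 0.5 added, for the mesenchymal group left of the dotted line and the epithelial group right of it. Red points are QZ1-hi and blue points QZ1-lo libraries, with the mean and SD of 4; Itga1, Itga5 and Itga8 lie apart in one direction, Itga3, Itgb4 and Itgb6 in the other, and Itga7, Itga9 and Itga6 overlap.

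Itga1, the alpha subunit of a collagen receptor, had, with the far rarer Itga8, the largest log2 fold changes of the 10; their order differed between alternatives. Its level was 106, 73.3, 142 and 79.3 CPM in QZ1-hi replicates 1 to 4, and 13.03, 12.1, 23.6 and 14.04 CPM in QZ1-lo replicates 1 to 4. The lowest QZ1-hi library was thus above the highest QZ1-lo library, and replicate 3 was the highest of both populations. The log2 fold change was 2.67 (SE 0.27, edgeR adjusted p = 0.000256), and 3.13% of all genes tested had a larger one. It lay between 2.43 and 2.94 with each library left out, and was called each time.

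Itga5, whose product with beta1 is the main fibronectin receptor, varied least among the genes that rose. It had 63.0, 44.4, 55.2 and 51.4 CPM in QZ1-hi and 21.3, 18.5, 14.8 and 15.7 CPM in QZ1-lo. All QZ1-hi libraries were above all QZ1-lo libraries, with means of 53.5 ± 7.76 and 17.6 ± 2.93 CPM (SD, n = 4 each). The log2 fold change was 1.61 (SE 0.16, edgeR adjusted p = 0.000256).

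Itga8, the alpha subunit of the receptor for nephronectin and other RGD ligands, was rare in both populations. It was counted 50, 58, 73 and 80 times in QZ1-hi, or 2.12, 2.86, 4.22 and 4.77 CPM. In QZ1-lo it was counted 16, 16, 30 and 0 times, or 0.477, 0.651, 1.09 and 0 CPM, where a count of 0 in replicate 4 allows up to 0.123 CPM. The populations did not overlap, and the log2 fold change of 2.64 (SE 0.78, edgeR adjusted p = 0.0384) had the widest error of the 10. The call was lost without QZ1-hi replicate 2 (edgeR adjusted p = 0.0638), 3 (0.0911) or 4 (0.0888) and without QZ1-lo replicate 1 (0.0889) or 2 (0.0763), at log2 fold changes of 2.50 to 2.72.

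Itgb3, the beta subunit that pairs with alphaV on endothelial and other cells and with alphaIIb on platelets, rose less. It had 27.9, 20.99, 30.2 and 19.5 CPM in QZ1-hi and 19.6, 10.01, 12.2 and 15.3 CPM in QZ1-lo. QZ1-hi replicate 4 and QZ1-lo replicate 1 were level, so that the populations just overlapped. The log2 fold change was 0.79 (SE 0.23, edgeR adjusted p = 0.0328). It was 0.34 (edgeR adjusted p = 0.454) when libraries were scaled by their totals alone, and the call was also lost without QZ1-hi replicate 1 (0.73, edgeR adjusted p = 0.0825) or 3 (0.64, 0.121) and without QZ1-lo replicate 2 (0.65, 0.0844), 3 (0.72, 0.0795) or 4 (0.82, 0.0556).

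Itga7, a laminin receptor subunit best known from muscle, had 12.0 to 19.6 CPM in QZ1-hi and 13.9 to 18.8 CPM in QZ1-lo, with -0.08 as the log2 fold change (SE 0.19, edgeR adjusted p = 0.838). Itga9, a receptor subunit for tenascin-C, was well counted, with 130, 91.5, 87.7 and 87.8 CPM in QZ1-hi and 122, 86.9, 104 and 104 CPM in QZ1-lo, with -0.07 as the log2 fold change (SE 0.16, edgeR adjusted p = 0.828). For both genes the populations overlapped, and both fold changes crossed 0 when single libraries were left out, with ranges of -0.20 to 0.01 for Itga7 and -0.23 to 0.02 for Itga9. The mesenchymal group thus split into members called higher and members whose difference was small beside its error.

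Itga3, the laminin receptor subunit of epithelial basal surfaces, was lower in QZ1-hi. It had 108, 114, 104 and 76.0 CPM in QZ1-hi and 220, 199, 206 and 199 CPM in QZ1-lo. The QZ1-lo libraries lay close together and all above the QZ1-hi libraries. The log2 fold change was -1.04 (SE 0.14, edgeR adjusted p = 0.000586).

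Itgb4, which with alpha6 anchors epithelial cells to laminin at hemidesmosomes, had 15.0, 18.7, 16.2 and 11.1 CPM in QZ1-hi and 30.5, 37.4, 44.7 and 29.5 CPM in QZ1-lo. No libraries of the populations overlapped, and the log2 fold change was -1.22 (SE 0.19, edgeR adjusted p = 0.00134). Itgb6, the beta subunit restricted largely to epithelium, had 56.7, 43.7, 23.2 and 29.5 CPM in QZ1-hi and 153, 101, 106 and 96.7 CPM in QZ1-lo. It fell furthest of the 10 genes, by 1.58 on the log2 scale (SE 0.26, edgeR adjusted p = 0.00179), and 96.1% of the genes tested had a higher log2 fold change. Its QZ1-hi libraries were also the most uneven of any member that fell, the highest being 2.44 times the lowest.

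Itga6, grouped as epithelial here and also known from endothelial cells, did not follow the other epithelial members. It had 123, 85.3, 127 and 67.2 CPM in QZ1-hi and 85.7, 57.8, 75.5 and 53.1 CPM in QZ1-lo. The populations overlapped, and the log2 fold change of 0.56 (SE 0.22, edgeR adjusted p = 0.110) did not pass the threshold. Without QZ1-hi replicate 4 it was 0.74 (edgeR adjusted p = 0.0245). Some 5.31% of the stretches of 50 bases in its exons also occur in another gene model, Gm29397.

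**Figure D2:**
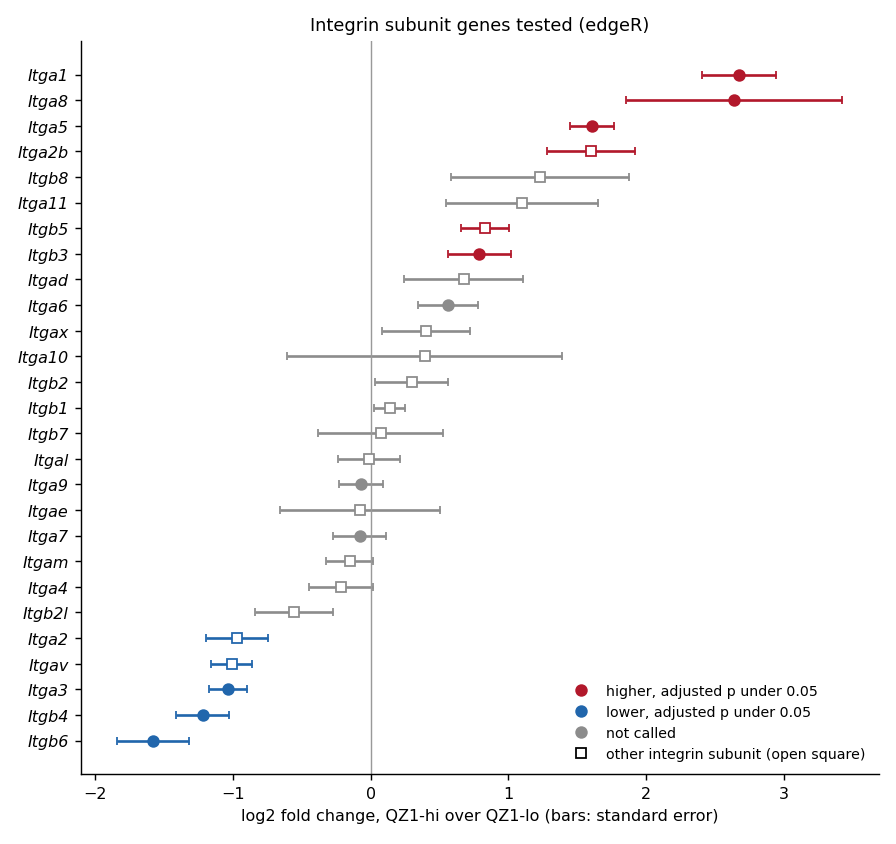
Log2 fold change of QZ1-hi over QZ1-lo, with its standard error, for the 27 integrin subunit genes tested, ordered by size. Filled circles are the 10 genes described and open squares the other 17; red marks calls of higher, blue of lower and grey no call, and the calls run from 2.67 for Itga1 to -1.58 for Itgb6.

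The bases before the start of these genes are shown for Itga1 and Itga5, which rose, and for Itga3 and Itgb6, which fell, so that the starts of genes with opposite differences can be read side by side. Each comes from the window of 250 bases upstream of a RefSeq start in GRCm38.p6, 5′ to 3′, and all 4 genes lie on the minus strand. For Itga3 and Itgb6 the last 87 and 40 bases of the window lie within an exon of another annotation, GENCODE, and were left off, which leaves 163 and 210 bases. The stretches are chr13:115101965-115102214 for Itga1, chr15:103366792-103367041 for Itga5, chr11:95076802-95076964 for Itga3 and chr2:60722644-60722853 for Itgb6. Capitals mark matches on either strand to the motifs searched, namely the GC box with the letters GGGCGG, the TATA box with the letters TATAAA, the AP-1 site written TGANTCA, the ETS site written CCGGAA and the E-box written CAGCTG, which were chosen after the data were seen.
Itga1: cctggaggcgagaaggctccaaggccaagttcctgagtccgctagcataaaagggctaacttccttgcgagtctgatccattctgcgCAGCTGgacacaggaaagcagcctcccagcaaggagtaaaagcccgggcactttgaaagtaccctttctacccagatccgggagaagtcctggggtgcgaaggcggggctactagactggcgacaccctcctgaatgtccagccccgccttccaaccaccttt
Itga5: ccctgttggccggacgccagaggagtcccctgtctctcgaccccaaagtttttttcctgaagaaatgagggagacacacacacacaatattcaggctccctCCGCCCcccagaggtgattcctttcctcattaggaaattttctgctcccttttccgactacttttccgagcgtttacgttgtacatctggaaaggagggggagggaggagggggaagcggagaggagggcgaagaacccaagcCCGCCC
Itga3: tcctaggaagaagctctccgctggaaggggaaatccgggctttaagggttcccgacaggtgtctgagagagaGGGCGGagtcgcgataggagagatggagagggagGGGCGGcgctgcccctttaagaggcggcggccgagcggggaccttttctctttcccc
Itgb6: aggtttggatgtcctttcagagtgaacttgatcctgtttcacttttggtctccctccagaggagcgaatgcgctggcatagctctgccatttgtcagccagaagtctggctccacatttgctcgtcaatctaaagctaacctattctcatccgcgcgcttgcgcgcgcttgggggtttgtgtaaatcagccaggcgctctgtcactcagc
In these stretches Itga3 had 2 GC boxes, Itga5 had 2 GC boxes, both on the other strand, Itga1 had 1 E-box and Itgb6 had no match. The bases left off the Itga3 window held 1 more GC box, and an ETS match ran across the cut. The shares that follow are of full windows, longer than the stretches of Itga3 and Itgb6. Of the 32851 RefSeq windows of 250 bases, 32.7% held a GC box, 12.4% a TATA box, 6.75% an AP-1 match, 12.0% an ETS match and 4271 windows the E-box. A match describes letters only. The stretches of Itga1 and Itga5 had 57.6% and 55.6% G or C, and those of Itga3 and Itgb6 62.6% and 52.4%. RefSeq windows were matched by gene for 6 of the 10 genes; Itga3 and Itgb6 have a second one each, Itga8 has one, and that of Itga9 lies inside the gene.

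In the annotation of GRCm38, Itga1 lies on chromosome 13 (114953096 to 115101964) and its exons share 3.68% of their bases with Gm49395 on the same strand. Itga3 (95044474 to 95076801) and Itgb4 (115974709 to 116008412) lie on chromosome 11, as does Itgb3 (104608000 to 104670476). Itgb6 lies on chromosome 2 (60598292 to 60722643), as do Itga6 and Itga8, and Itga5 on chromosome 15 (103344286 to 103366763). An annotated RNA on the opposite strand covers 5.05% of the exon bases of Itga8 (E030013I19Rik) and 7.66% of those of Itgb4 (B230344G16Rik). Whether counting used strand is not given in the sources used here, so reads of such a pair could be mixed over these stretches.

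Levels can be compared between genes only per length, here as CPM per kb of all annotated exons. On that scale Itga3 was the highest of the 10 in both populations, with 17.6 ± 2.93 in QZ1-hi and 36.1 ± 1.75 in QZ1-lo (SD, n = 4). In QZ1-hi it was followed by Itga9 (12.9 ± 2.68), Itga6 (11.1 ± 3.21) and Itga5 (10.8 ± 1.57), which lay within each other's spread, and the libraries of Itga3 and Itga9 overlapped. Below them came Itgb6, Itga1, Itgb3 (4.18 ± 0.878), Itgb4 (2.17 ± 0.450) and Itga7 (1.97 ± 0.440). In QZ1-lo it was followed by Itgb6 (16.1 ± 3.68) and Itga9 (13.6 ± 1.87), also within their spread, and then by Itga6 (7.54 ± 1.68), Itgb4 (5.06 ± 1.00), Itga5 (3.56 ± 0.593), Itgb3 (2.41 ± 0.703) and Itga7 (2.09 ± 0.284). Itga8 was the lowest in both, with 0.474 ± 0.165 and 0.0751 ± 0.0609. Itga1 moved from 5.38 ± 1.68 in QZ1-hi to 0.843 ± 0.287 in QZ1-lo, beside Itgb6 at 5.38 ± 2.10 and 16.1 ± 3.68, so that the pair was level in QZ1-hi and far apart in QZ1-lo. Gene models with long untranslated exons, as for Itga1, lower a level of this kind.

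Since a subunit works only with its partner, each gene was also set against that partner in the same library, which removes the scaling between libraries. Itgb1, the common beta subunit, was called in neither direction, with 399, 375, 366 and 346 CPM in QZ1-hi and 382, 315, 317 and 335 CPM in QZ1-lo (log2 fold change 0.14, SE 0.11, edgeR adjusted p = 0.480). Scaled by library totals alone that value was -0.32, also not called. Itgav, the partner of beta3, beta5 and beta6, was lower in QZ1-hi, with 94.2, 90.7, 71.3 and 88.1 CPM against 218, 162, 152 and 162 CPM in QZ1-lo (log2 fold change -1.01, SE 0.15, edgeR adjusted p = 0.000876). The partner that most of these subunits share was thus not called, while that of Itgb3 and Itgb6 fell.

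The 10 ratios were compared by a two-sided exact permutation test over the 70 ways to assign the libraries, which allow no p under 0.0286, with adjustment over the 10. For 6 of them the populations did not overlap, each at the smallest exact p and an adjusted p of 0.0476. Since the adjustment pools the 10 ratios, each of the 6 passed only because the others also reached the smallest p. Among them is Itga8, with a QZ1-lo library that held no count of it. Per 100 counts of Itgb1, Itga1 had 19.6 to 38.8 counts in QZ1-hi and 3.41 to 7.44 in QZ1-lo, a mean difference of 2.54 in log2 ratio. Itga5 had 11.8 to 15.8 counts in QZ1-hi and 4.67 to 5.86 in QZ1-lo, a difference of 1.47, and Itga3 had 22.0 to 30.4 and 57.6 to 64.8, a difference of -1.19. Relative to Itgb1, Itga1 and Itga5 were thus higher and Itga3 lower. The other laminin receptor genes set against Itgb1, Itga6 and Itga7, did not pass.

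Itgb3 and Itgb6, 2 of the beta subunits that pair with alphaV, differed from each other. Itgb5 was not set against Itgav. Per 100 counts of Itgav, Itgb3 had 22.2 to 42.4 counts in QZ1-hi and 6.20 to 9.44 in QZ1-lo, a difference of 1.81 in log2 ratio with no overlap. Itgb6 had 32.6 to 60.1 counts in QZ1-hi and 59.7 to 70.3 in QZ1-lo, a difference of -0.63, and here the populations overlapped (exact permutation p = 0.0571, adjusted p = 0.0816). So Itgb3, whose own level rose by a small amount, did not overlap when set against Itgav, while Itgb6 and Itgav were both called lower and their ratio did not pass.

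Itgb4 and Itga6, which form one receptor, also parted. Per 100 counts of Itga6, Itgb4 had 12.2 to 22.0 counts in QZ1-hi and 35.6 to 64.8 in QZ1-lo, a difference of -1.76 in log2 ratio with no overlap. For Itga8 the difference against Itgb1 was 3.37 with 0.5 counts added and 2.42 with 5 added, since the QZ1-lo library with no count sets the ratio. For Itga6, Itga7 and Itga9 against Itgb1 the differences were 0.40, -0.24 and -0.22, and none passed (exact permutation p = 0.143, 0.2 and 0.114).

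**Figure D3:**
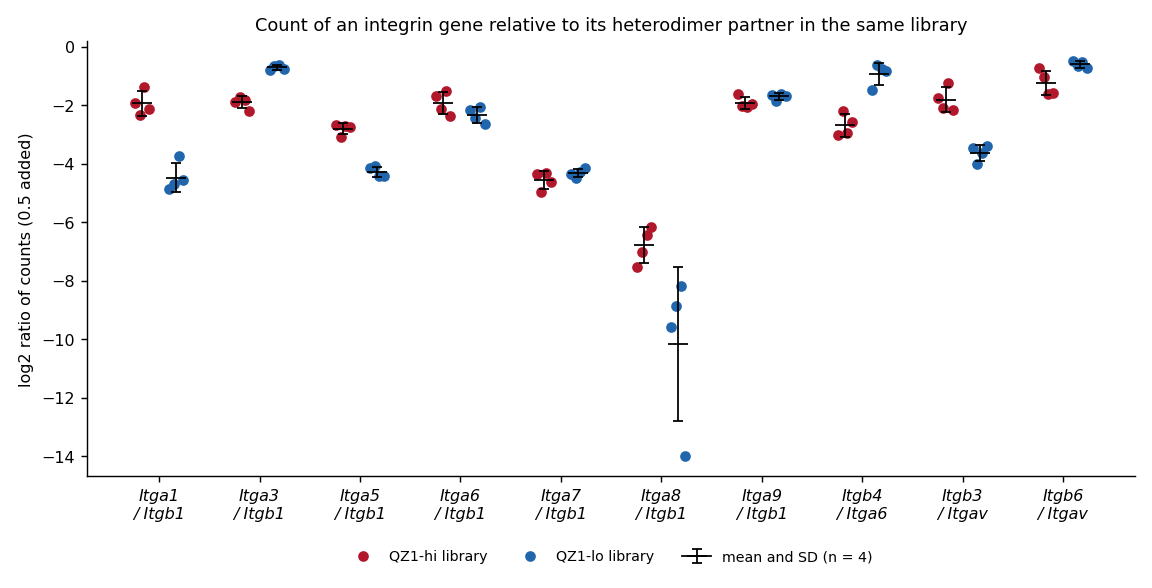
Log2 ratio of the counts of each integrin gene to those of its heterodimer partner in the same library, with 0.5 added to both counts. Red points are QZ1-hi and blue points QZ1-lo libraries, with the mean and SD of 4; the lone point near -14 for Itga8 is QZ1-lo replicate 4, which had 0 counts of Itga8.

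Of the other 17 integrin subunit genes, 2 were called higher and 2 lower, near the shares of 9.88% and 8.21% over all genes. Among the 8 not particular to blood cells, Itgb5, another partner of alphaV, was higher (45.1 to 78.6 CPM in QZ1-hi, 29.0 to 39.4 in QZ1-lo, log2 fold change 0.83, SE 0.18, edgeR adjusted p = 0.00701). Scaled by library totals alone that was 0.35 (edgeR adjusted p = 0.339). Itga2, a collagen receptor subunit of epithelial cells and platelets, was lower (11.7 to 26.2 against 36.1 to 46.1 CPM, -0.97, SE 0.22, edgeR adjusted p = 0.0109), as was Itgav. The collagen receptor genes thus differed in direction, Itga1 up and Itga2 down, with Itga11 at 1.10 (SE 0.55) and Itga10 at 0.39 (SE 1.00), neither of them called. Itga4 had a fold change of -0.21 on the log2 scale (SE 0.23) and Itgb8 one of 1.23 (SE 0.64), and neither passed.

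Of the 9 subunits of leukocytes and platelets, only Itga2b, the platelet alphaIIb, was called, beside 18.1% of all genes. Itga2b had 6.82 to 11.3 CPM in QZ1-hi and 1.88 to 4.62 in QZ1-lo (log2 fold change 1.60, SE 0.32, edgeR adjusted p = 0.00505). Itgb3 is its partner, and of 5 platelet genes tested, Itga2b included, 4 were higher in QZ1-hi, with a summed level of 18.2 to 38.9 CPM in QZ1-hi and 4.56 to 9.26 CPM in QZ1-lo for the 6 listed. With limma voom 3 were higher, and with libraries scaled by their totals alone 2, where Pf4 (1.07, edgeR adjusted p = 0.100) and Gp1ba (1.76, edgeR adjusted p = 0.0888) were not called. The part of platelet RNA in the Itgb3 difference was not tested. Itgb2, the beta subunit of leukocytes, was counted at 258 to 552 CPM in QZ1-hi and 184 to 404 CPM in QZ1-lo although the sort left out CD45 and CD11b positive cells, and Ptprc, which encodes CD45, at 71.4 to 222 and 93.4 to 161 CPM. The 6 leukocyte markers, Itgb2 and Ptprc among them, summed to 3208 to 6713 CPM in QZ1-hi and 2229 to 4466 CPM in QZ1-lo. Lyz2 alone had 2696 to 5763 CPM in QZ1-hi and 1895 to 3761 CPM in QZ1-lo. None of the 6 was called by edgeR, DESeq2 or limma voom, and 0 had an unadjusted p under 0.05 in any of these. Log2 fold changes of Itgad (0.67), Itgae (-0.08), Itgal (-0.01), Itgam (-0.15), Itgax (0.40), Itgb2l (-0.56) and Itgb7 (0.07) did not pass, and the value of Itgam is uncertain because 66.3% of its stretches of 50 bases occur in Gm49368 as well.

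The matrix ligands were read next, from lists of genes set by known binding and chosen with earlier results of these data known. Of 13 collagen chains, 9 were higher and 2 lower, beside 9.88% and 8.21% of all genes. Their median log2 fold change was 1.58, beside 0.02 over all genes. Among those higher were Col1a1, a chain of fibrillar collagen (365 to 707 CPM against 10.7 to 91.6 CPM, log2 fold change 3.26), Col6a2 (1.95) and the basement membrane chain Col4a1 (0.92, SE 0.25, edgeR adjusted p = 0.0262), a ligand of the receptor that Itga1 helps form. Col4a3 (-0.76) and Col4a4 (-0.90), chains of the alveolar basement membrane, were lower. So the ligands of that receptor were for the most part higher in the same population as Itga1, while these chains of type IV collagen differed in the other direction; the number of lower calls went from 2 to 1 without QZ1-hi replicate 2, 3 or 4 or QZ1-lo replicate 1 or 2. Higher calls went from 9 to 7 without QZ1-hi replicate 1 or 3 or QZ1-lo replicate 2, 3 or 4. Scaled by library totals alone, Col4a1 (0.53, edgeR adjusted p = 0.255) and Col4a2 (0.36, edgeR adjusted p = 0.411) were not called.

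Of the laminin chains, 6 were higher in QZ1-hi, where 9.88% of all genes tested were called higher and 8.21% lower. Lamb2 was not called (0.56, edgeR adjusted p = 0.0503). Higher calls numbered 4 without QZ1-hi replicate 2 or without QZ1-lo replicate 1, and 7 with DESeq2. Lama2 had 17.7, 33.8, 83.0 and 34.1 CPM in QZ1-hi and 0.656, 3.30, 5.39 and 1.06 CPM in QZ1-lo (log2 fold change 4.02, SE 0.65, edgeR adjusted p = 0.00156). Lama4 (3.40), Lama1 (3.06), Lamc3 (2.98), Lamb1 (1.53) and Lamc1 (0.67) were also higher; Lama4 is known from blood vessels and Lama2 from mesenchymal tissue. Lama3, Lamb3 and Lama5 were lower. All chains of this list, higher and lower, were set down as parts of laminins bound by the receptors of Itga3, Itga6 or Itga7. Lama3 had 39.6, 34.8, 29.1 and 27.4 CPM in QZ1-hi and 121, 90.7, 76.5 and 90.4 CPM in QZ1-lo (log2 fold change -1.53, SE 0.17, edgeR adjusted p = 0.000278). Lamb3 fell by 0.81 on the log2 scale (SE 0.19) and Lama5 by 0.77 (SE 0.16). Itga3, Itgb4, Lama3 and Lamb3 were all lower in QZ1-hi, while Itga6 was not and 6 chains of the same list were higher. Lamc1 was not called with libraries scaled by their totals alone (0.23, edgeR adjusted p = 0.589).

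Of 17 tested ligands of the RGD-binding and alpha9 receptors, 8 were higher and 1 lower, beside 9.88% and 8.21% of all genes, with a median of 0.69. Fn1, fibronectin, the ligand of the receptor with Itga5, had 1570, 1485, 1032 and 949.9 CPM in QZ1-hi and 931, 487, 457 and 533 CPM in QZ1-lo, which do not overlap (log2 fold change 1.06, SE 0.25, edgeR adjusted p = 0.0118). Svep1 (3.75, SE 0.42) and Vcam1 (1.66, SE 0.20), both ligands of alpha9 or alpha4 receptors, were higher. So was Tnc, tenascin-C (1.71, SE 0.54, edgeR adjusted p = 0.0491), while Itga9 itself did not pass. Tnc libraries overlapped, with 144, 54.2, 20.1 and 50.2 CPM in QZ1-hi and 31.8, 22.6, 20.3 and 7.45 CPM in QZ1-lo. Higher calls of the list numbered 7 with DESeq2 or limma voom. They also numbered 7 without QZ1-hi replicate 1, 2 or 4 or QZ1-lo replicate 2, 3 or 4. Fbn1 (3.25), Ltbp1 (2.90), which holds latent TGF-beta in the matrix, Edil3 (2.90) and Emilin1 (1.28) were also higher. Npnt, the ligand of the receptor with Itga8, had a fold change of -0.42 on the log2 scale (SE 0.18) and was not called. Tgfb1 and Tgfb3, whose latent forms bind alphaV with beta6, differed by 0.32 (SE 0.13) and 0.29 (SE 0.23) on the log2 scale and were not called. The 1 lower call, Ccn1 (-0.58, edgeR adjusted p = 0.0457), was lost without QZ1-hi replicate 1, 3 or 4 or QZ1-lo replicate 1, 2 or 3. Vtn, vitronectin, was too rare to test. Scaled by library totals alone, Fn1 was at 0.599 (edgeR adjusted p = 0.172) and 3 genes were called lower in place of 1, with Npnt (-0.87, edgeR adjusted p = 0.0308) and Thbs1 (-0.86, edgeR adjusted p = 0.0379) beside Ccn1.

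**Figure D4:**
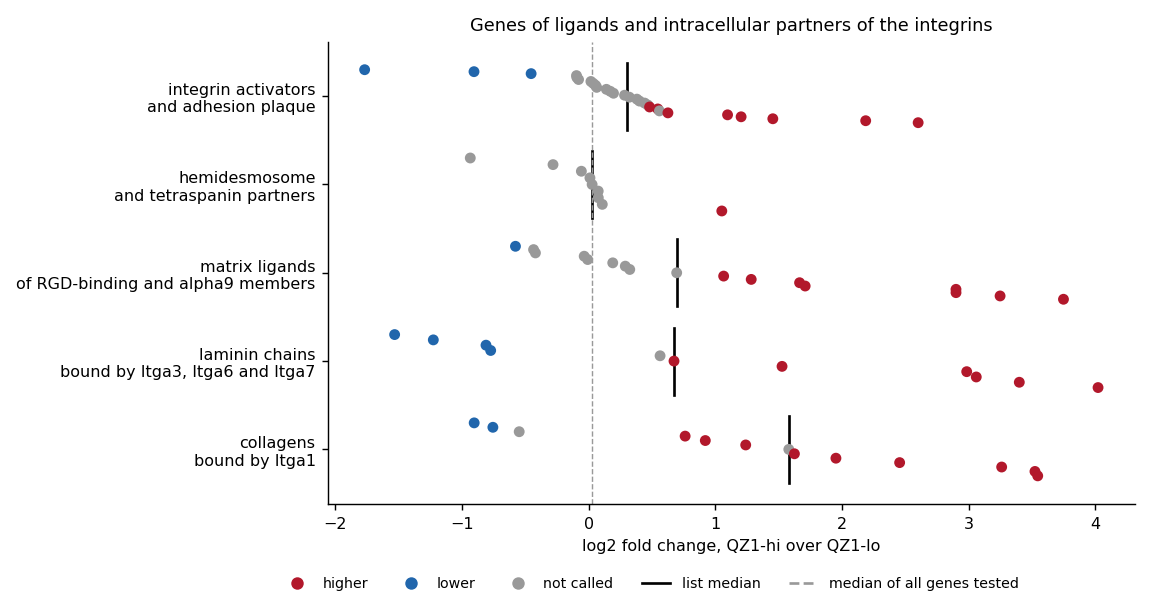
Log2 fold change of QZ1-hi over QZ1-lo for genes of 5 lists of integrin ligands and intracellular partners, 1 point for each gene tested. Red points were called higher, blue lower and grey not; black bars are list medians, from 0.03 to 1.58, and the dashed line is the median of all genes tested at 0.02.

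Inside the cell, talin and kindlin bind the beta tail and activate the receptor, and a complex of Ilk, pinch and parvin proteins links it to actin. Of 28 such genes, 8 were higher and 3 lower, beside 9.88% and 8.21% of all genes, with a median of 0.30. Paralogs differed from each other. Parvb rose, with 33.7, 30.8, 49.7 and 26.3 CPM in QZ1-hi and 8.29, 6.26, 9.70 and 6.55 CPM in QZ1-lo (log2 fold change 2.19, SE 0.23, edgeR adjusted p = 0.000278), while Parva had a fold change of 0.04 on the log2 scale (SE 0.14). Of the pinch proteins, Lims2 (2.60, SE 0.58) and Lims1 (0.48, SE 0.14) both rose. Tns1 (1.10), Tns2 (1.20), Kank3 (1.45), Rsu1 (0.62) and Rap1a (0.54) were also higher.

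The kindlin of epithelial cells, Fermt1, was lower (1.57 to 3.82 CPM in QZ1-hi, 3.40 to 13.7 CPM in QZ1-lo, log2 fold change -1.77, SE 0.47, edgeR adjusted p = 0.0218). The widespread kindlin Fermt2 had a fold change of 0.40 on the log2 scale (SE 0.19) and the blood cell form Fermt3 one of 0.38 (SE 0.26), and neither passed. The kinase gene Src (-0.91) and the actin crosslinker Flna (-0.46) were lower. The core genes Tln1 (0.20), Ilk (-0.10), Vcl (0.02), Pxn (0.06) and Zyx (-0.09) were not called, nor was Ptk2 (0.44, edgeR adjusted p = 0.0703). Lower calls went from 3 to 1 without QZ1-hi replicate 4 or QZ1-lo replicate 2, and higher calls from 8 to 3 with libraries scaled by their totals alone, where Tns1 (0.63), Tns2 (0.76), Rsu1 (0.17), Rap1a (0.10) and Lims1 (0.03) were not called.

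Of 9 genes of hemidesmosomes and of tetraspanins that bind these integrins, 1 was higher, near the share of 9.88% over all genes. Dst, whose epithelial form binds beta4 and which is also made in other forms in other cells, had 317, 335, 427 and 465 CPM in QZ1-hi and 171, 191, 174 and 209 CPM in QZ1-lo (log2 fold change 1.05, SE 0.15, edgeR adjusted p = 0.000799). Counts per gene do not tell its forms apart. Plec, the other linker of beta4 to keratin, had a fold change of 0.03 on the log2 scale (SE 0.12), and Cd151, the tetraspanin partner of alpha3 and alpha6, one of 0.11 (SE 0.16). Col17a1, a transmembrane collagen of hemidesmosomes, stayed at 1.05 CPM or less in every library, with -0.94 as the log2 fold change (SE 0.85). Its libraries just failed to overlap, with 0 to 0.890 CPM in QZ1-hi and 0.900 to 1.05 CPM in QZ1-lo. None of the 9 was called lower by edgeR, and 0 of those below 0 had an unadjusted p under 0.05; DESeq2 and limma voom also called 0. Scaled by library totals alone, the Dst value was 0.57 (edgeR adjusted p = 0.0974) and Cd82 was called lower (-0.75, edgeR adjusted p = 0.0451).

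Markers of several cell types also differed between the populations, while those of others did not, and their part in the integrin differences was not tested. Of all genes tested, 9.88% were called higher and 8.21% lower. All 8 endothelial markers were higher in QZ1-hi, at a summed 1226 to 2823 CPM against 124 to 401 CPM, as were 6 of 7 fibroblast markers (1019 to 2075 against 30.8 to 237 CPM), 3 of 4 lymphatic endothelial, 3 of 7 pericyte and all 3 mesothelial markers. DESeq2 and limma voom each called 2 of the 3 mesothelial markers higher, and the libraries of Msln and Upk3b overlapped. Upk3b had 126 CPM in QZ1-hi replicate 2 and 16.4 to 26.4 CPM in the other QZ1-hi libraries. Of 6 smooth muscle markers, 3 were higher and 1, Cnn1, was lower at under 1 CPM. All 5 markers of alveolar type 1 cells (536 to 860 against 1159 to 1412 CPM) and all 5 airway markers (291 to 865 against 1319 to 3704 CPM) were lower. Of 6 markers of alveolar type 2 cells, Sftpc was higher (0.78, and 0.37 without a call with libraries scaled by their totals alone) and Nkx2-1 lower (-0.90), and the summed levels overlapped. Of the 3 basal cell markers tested, none was called and their sum stayed under 7 CPM, with Krt5 near 0, and none of the 3 muscle markers tested was called; 0 of either list had an unadjusted p under 0.05 in edgeR, and DESeq2 and limma voom called 0. Of the 2 Schwann cell markers tested, Mbp was lower. The QZ1-lo library with the highest Itga1, replicate 3, also had the highest sums of endothelial, lymphatic, pericyte, fibroblast and smooth muscle markers of its population. The same held for its alveolar type 2, platelet, cardiac and skeletal muscle and Schwann cell markers. QZ1-hi replicate 3, the highest in Itga1 there, had the highest endothelial, lymphatic, pericyte, fibroblast, platelet, and cardiac and skeletal muscle sums.

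For each integrin gene, the genes with the most similar profile over the 8 libraries were found by the root mean square difference of centred log2 CPM, as a description with no test. Nearest to Itga1 were Impdh1 (0.17) and Adcy4 (0.19), and nearest to Itga5 Clec2d and Acap3 (0.17 each). Nearest to Itga3 were Esrp1, a splicing regulator of epithelial cells (0.09), and Aqp5, a water channel of alveolar type 1 cells (0.10), which is also among the markers above. Nearest to Itgb4 were Wfdc2 (0.12) and Arhgef28 (0.15), and nearest to Itgb6 F2rl1, a receptor cut by serine proteases, and Rgs16 (0.12 each). Itga8 had no close match, with Armcx2 and Gap43 at 0.28 and 0.29. For Itgb3 they were Gm5113 (0.16) and Cd200 (0.16), for Itga6 Msrb3 (0.07) and Fut2 (0.12), and for the flat profiles of Itga7 and Itga9 Als2cl (0.09) and Carm1 (0.08), each after a gene listed by identifier only.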

How the data were processed

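RNA of 8 libraries, 4 QZ1-hi and 4 QZ1-lo, was measured by stranded total RNA-seq. The deposited values are raw counts per gene that the authors obtained with Rsubread and did not normalize (build mm10 per the labels' processing notes); their own comparison used DESeq2. The aligner is not given in the sources used here. Of 27179 Entrez Gene identifiers, 25293 matched a symbol. Samples were grouped by the labels; replicate numbers follow accession order and only name libraries. Libraries of a population differed by more than counting noise (chi-square per gene at least 34.7), so none was taken as a duplicate.

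The fit used edgeR 4.0.16 in R 4.3.3: TMM, filterByExpr (minimum count 10, minimum total 15), glmQLFit and glmQLFTest over 15583 genes, with Benjamini-Hochberg adjustment over all of them and calls at 0.05. Dispersion over all genes was 0.113. Standard errors were derived from each log2 fold change and its F statistic. A level of 3 counts, 0.0894 to 0.179 CPM, was the floor; floors cover counting error only. Lengths and overlaps came from GENCODE M21, promoter windows from RefSeq GRCm38.p6. The fit was tested on simulated counts with known changes. Alternatives were DESeq2 1.42.0, limma voom 3.58.1, other scalings, filters and shrinkage, removal of mitochondrial and ribosomal RNA genes, and leaving out each library.

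The members and lists were chosen with earlier results of these data known. The genes named were all integrin subunits; of each pathway list, the genes called in each direction with the lowest adjusted p, at most 4 a direction, and ligands or partners of a described gene; the 2 nearest genes of each member; and marker genes where a list is described. Other called list genes, and core genes that did not pass, were named after their values were seen. One gene of these lists is not reported here.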

Additional observations from a re-analysis of the deposited data

Results flagged for a closer look

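Within groups of 4 libraries, 6 integrin values stood apart from the other 3 by Dixon's criterion, which sets the gap to the nearest library against the group's range. Chance gives such a value in about 1 of 20 groups, and 74 groups were examined. Itga1 in QZ1-lo replicate 3 was at 23.6 CPM (gap 0.830 of the range). Itga10 was at 3.84 CPM in the same library (0.879). Itga9 was at 130 CPM in QZ1-hi replicate 1 (0.911). Itgb6 and its partner Itgav were both highest in QZ1-lo replicate 1, at 153 and 218 CPM (0.832 and 0.844). Itga11 was at 17.8 CPM in QZ1-hi replicate 3 (0.897).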

How the results depend on the processing

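No paired analysis was possible because replicate numbers were given in accession order and neither the labels nor the methods say which QZ1-hi and QZ1-lo libraries came from the same mouse. The library numbers in the labels alternate between the populations, and the same replicate number had the highest sum in both for 11 of 14 marker lists; whether neighbouring numbers share a mouse is not given in the sources used here, and p-values take the libraries as independent. With limma voom the log2 fold change of Itga8 was 3.56, above that of Itga1 at 2.77. Itga1, Itga5, Itga3, Itgb4 and Itgb6 kept their direction and their call in all 8 alternatives of test, scaling, filter, gene removal and shrinkage and with each library left out, with log2 fold changes of 2.24 to 2.77, 1.17 to 1.61, -1.48 to -1.03, -1.67 to -1.14 and -2.02 to -1.58 over those 8. Members called higher numbered 2 to 4 and members called lower 3 with each library left out. Scaling by library totals alone moved the median over all genes to -0.44 (log2) and the calls over all genes from 1540 higher and 1280 lower to 882 and 2509. Under it Itgb3 (0.34) and Itgb5 (0.35) lost their calls, Itga4 gained one (-0.71, edgeR adjusted p = 0.0485), no call remained for Dst, and Itgb1 (-0.32), Itga10 (-0.22), Itgax (-0.13), Itgb2 (-0.22) and Itgb7 (-0.41) changed sign without a call. Genes near 0 also changed sign with single libraries left out, over ranges of -0.196 to 0.013 for Itga7, -0.227 to 0.016 for Itga9, -0.425 to 0.219 for Itgae, -0.194 to 0.184 for Itgal and -0.229 to 0.341 for Itgb7, which was -0.032 with limma voom. Itga8 could not be tested with a minimum of 10 counts in every library. With 1 library left out, the exact test of the ratios has 35 assignments. The causes of these changes were not tested. The counts of Itga8 limit its precision.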
